A study of Mus musculus with 36 samples.

Results

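The carbonic anhydrases described here were 9 genes of the mouse family, Car2, Car3, Car4, Car5b, Car8, Car11, Car12, Car13 and Car14. They were taken by gene name from a table of 48709 genes. The rule itself used no measured value, but the list was drawn up with earlier results of these data known. It leaves out 7 other genes of the family, which are described separately below. All 9 were in the table, and all 9 passed the filter on low values that left 15806 genes for testing.

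The tissue was the stria vascularis of the cochlea, taken from mice labelled CBA (CBA/J in the study's methods) aged 1, 9 and 26 months. All animals were untreated and carried no engineered allele that the labels name, so that age was the labelled difference between the groups. The labels used here name no batch, and a difference in preparation between the ages could not be told apart from age. Libraries A, B and C were made at each age, and every library came from dissociated cells pooled over 4 cochleae (2 mice, males and females) and was run 4 times on the sequencer. By the labels the 3 libraries of an age are independent, while the study's methods speak of 2 biological replicates with technical repeats, so every SD, n and p-value below measures the spread between libraries, which may be technical. A value in RPKM is a number of reads divided by the length of the transcript and by the depth of the library. In a pool of mixed cells, fewer cells of a type and less RNA per cell cannot be told apart.

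Carbonic anhydrases are zinc enzymes that interconvert carbon dioxide and water with bicarbonate and a proton. The isoforms differ in place, in the cytosol, in mitochondria, or on the outer face of the plasma membrane, and a few members of the family have lost the enzymatic activity. The stria vascularis is the source of endolymphatic potassium and of the endocochlear potential, and carbonic anhydrase activity is a known property of the lateral wall of the cochlea, where it takes part in the handling of acid and base.

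Active carbonic anhydrases hold the zinc ion with 3 histidines, and the coding sequence around these positions separates the 7 members that retain all 3 from the 2 that do not. The 30 bases below hold the codons aligned to the first and second zinc-binding histidines of Car2, its codons 94 and 96, which are given in capitals (CAC and CAT both encode histidine). The sequences were read from GENCODE M21 transcripts of the genome build GRCm38, in the order cytosolic, membrane-bound, mitochondrial and non-enzymatic.
Car2: ttgatccagtttCACtttCACtggggctca
Car3: cttcgccaattcCATcttCACtggggctcc
Car13: ttgcggcagttcCATttgCACtgggggtca
Car14: gcagcccagctcCACctgCACtggggtcag
Car12: gcagagcagctgCACttgCACtgggggaac
Car4: gctgtacagttgCACctgCACtggtcaaat
Car5b: ctgaagcagtttCATtttCATtggggagcc
Car8: ctgtatgaagttAGAtttCACtggggaaga
Car11: ctcagtgaactgCGCctgCTAtttggagct

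Car8 has an arginine codon at the first position and keeps the other 2 histidines, and Car11 has none of the 3. The 24 bases around the remaining zinc position, codon 119 of Car2, 142 of Car8 and 159 of Car11, are shown to compare Car2 with both.
Car2: gcagagcttCACttggttcactgg
Car8: atggagctcCACctgatccactgg
Car11: gctgaggtgCAGctaatccacttc
Among the members, the translated Car2 was most like Car13 (57.4% of aligned residues identical) and Car3 (56.9%). Identity with Car2 was 51.5% for Car5b, 43.3% for Car8, 38.5% for Car14, 37.5% for Car12, 37.0% for Car11 and 36.6% for Car4.

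Car13, Car3 and Car2, the cytosolic members, lie within 259 kb of chromosome 3 (GRCm38 chr3:14641727-14900770). Car13 (14641727 to 14663002), Car3 (14863512 to 14872523) and Car2 (14886273 to 14900770) are on the plus strand, with Car1, a cytosolic isoform abundant in red cells, on the minus strand between Car13 and Car3. Car14 is elsewhere on the same chromosome (chr3:95897768-95904691, minus strand). Car4 is at chr11:84957786-84966044 (plus), Car12 at chr9:66713686-66766845 (plus), Car8 at chr4:8143362-8239041 (minus), Car11 at chr7:45699843-45704682 (plus) and Car5b at chrX:163976822-164027997 (minus).

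Some properties of the whole series bear on these genes. Read counts were not part of the table, so that the depth of each library and the error it gives are unknown. Libraries of an age were very alike, with a median coefficient of variation over abundant genes between 0.796% and 8.44% for the 9 pairs of libraries of the same age, and averaging those under 2% left 5 samples, 2 at 1 month, 2 at 9 months and 1 at 26 months. The defining markers of marginal, intermediate and basal cells were present at every age, except the melanocyte gene Tyrp1, which was under 0.1 RPKM in all libraries. Markers of red cells, added up, were at 3072 to 3189 RPKM at 1 month, 366.7 to 456.9 at 9 months and 670.3 to 714.4 at 26 months. Markers of macrophages were at 179.3 to 185.0, 359.2 to 370.0 and 1156 to 1173 RPKM at 1, 9 and 26 months. The median gene was 0.27 higher on the log2 scale at 9 months than at 1 month and 0.24 higher at 26 months than at 1 month, and 0.03 lower at 26 months than at 9 months, so differences from 1 month are also given relative to this shift, or under other scalings, for most members.

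Carbonic anhydrase transcript was abundant in the stria at all ages and was made up mostly of Car2 and Car14. Summed over the 9 genes, the level was 760.3 ± 8.17 RPKM at 1 month (SD, n = 3 libraries at each age), then 687.9 ± 16.1 RPKM at 9 months, and 779.6 ± 8.52 RPKM at 26 months. This was 0.209%, 0.202% and 0.224% of all RPKM. At 1 month Car2 (rank 138 among all genes) and Car14 (rank 139) had overlapping ranges and stood above Car12, Car13, Car3, Car8, Car11, Car5b and Car4, in that order, with no overlap between these neighbours. At 9 months Car14 was above Car2 and Car3 above Car13 in every library, Car4 was above Car5b, and no neighbours overlapped. The order at 26 months was that of 9 months, and only the ranges of the 2 least abundant members, Car4 and Car5b, overlapped.

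**Figure D1:**
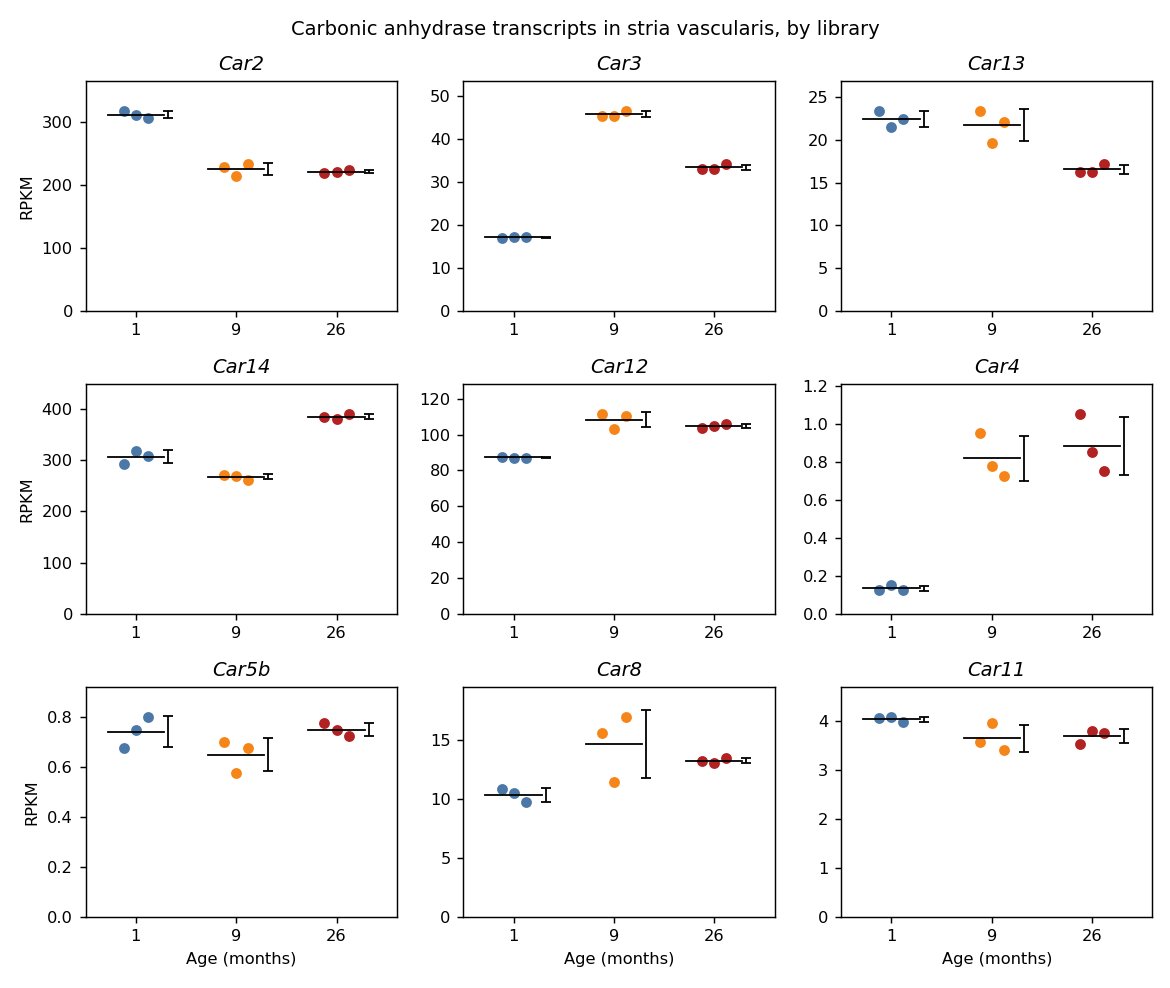
RPKM of the 9 carbonic anhydrases (vertical axes, each from 0) in the 3 libraries at 1, 9 and 26 months (points), with the mean of an age (line) and its SD (bar). Car3 and Car4 are lowest at 1 month, Car14 is highest at 26 months, with all 3 libraries above 380 RPKM, and Car2 is highest at 1 month, with all 3 above 306 RPKM.

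Car2, the cytosolic isoform of high activity, was highest at 1 month. It had 317, 310.5 and 306 RPKM at 1 month, 228, 214 and 232 at 9 months, and 219, 220.3 and 222 at 26 months (libraries A, B and C). The 1-month libraries were all above those of the later ages, whereas the ranges of 9 and 26 months overlapped. Car2 differed by -0.47 ± 0.04 on the log2 scale (limma estimate ± SE) for 9 against 1 month (adjusted p = 5.88e-06) and by -0.50 ± 0.04 for 26 against 1 month (adjusted p = 3.82e-06). Relative to the median gene both were -0.74, and over other scalings of the libraries (quantile normalization, median of ratios, rescaling without the 20 most abundant genes, and removal of each library's trend with gene length) they ranged from -0.77 to -0.29 and from -0.76 to -0.26. Neither difference reached a log2 of 1, the fold threshold of a call. For 26 against 9 months the estimate was -0.03, with a 95% interval of -0.12 to 0.06 (adjusted p = 0.606).

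Car2 is also expressed in red cells, whose markers stood apart by age. All 10 red cell markers in the table fell at 9 months and at 26 months relative to 1 month. Of all 15806 genes tested, 233 and 396 fell in these comparisons. None of the 10 markers was at 0 in all libraries. Car1 fell with them, to 0.25, 0.275 and 0.2 RPKM at 9 months, against 1.53, 1.58 and 1.4 RPKM at 1 month (log2 -2.23, adjusted p from limma 4.51e-06), and to 0.05, 0.15 and 0.125 RPKM at 26 months (log2 -2.97 against 1 month). Between 9 and 26 months 3 of the 10 red cell markers rose, as did 519 of the 15806 genes tested. The estimate for Car2 was -0.03. The part of red cells in the Car2 values was not tested.

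Car3, a cytosolic isoform of low activity known from muscle, fat and liver, rose at 9 months. It had 17.0, 17.1 and 17.2 RPKM at 1 month, 45.3, 45.4 and 46.5 at 9 months, and 33.0, 33.0 and 34.2 at 26 months, so that no library of an age overlapped with another age. The level at 9 months was 2.67 times that at 1 month on the fitted scale (log2 1.42 ± 0.03, adjusted p = 8.9e-09). At 26 months Car3 was between the other ages, at a log2 of 0.96 ± 0.03 against 1 month (adjusted p = 3.25e-08), just short of the fold threshold, and of -0.45 ± 0.03 against 9 months (adjusted p = 4.7e-06). Relative to the median gene, the differences from 1 month were 1.14 at 9 months and 0.72 at 26 months.

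Of 12 markers of fibrocytes of the spiral ligament, the tissue from which the stria is dissected, 9 had their highest mean at 9 months and 3 at 1 month (Apod, Lum and Col1a2). In the test, 4 rose and none fell at 9 months relative to 1 month, 8 fell and none rose at 26 months relative to 9 months, and at 26 months relative to 1 month 1 rose and 2 fell. Of all 15806 genes tested, 10.1% rose and 233 genes fell at 9 months relative to 1 month. At 26 months 519 rose and 640 fell relative to 9 months, and 1568 rose and 396 fell relative to 1 month. The counts of other marker lists below are to be read beside these. Their summed level was 1262 to 1369 RPKM at 1 month, 1548 to 1620 at 9 months and 919.1 to 946.4 at 26 months, and none was at 0 in all libraries. The means of Coch, which encodes cochlin, were 50.5, 334.6 and 156.9 RPKM at 1, 9 and 26 months, and those of Otos were 29.6, 106.8 and 45.0. Apod, the most abundant of the list, averaged 1160, 993.7 and 680.2 RPKM at 1, 9 and 26 months, Lum 5.13, 4.78 and 1.75, and Col1a2 1.06, 0.575 and 0.233. Of 8 basal cell markers, 2 rose at 9 months relative to 1 month and 4 fell at 26 months relative to 9 months, with sums of 1055 to 1065, 1679 to 1724 and 972.2 to 990.0 RPKM at 1, 9 and 26 months. Of 14 marginal cell markers, 1 rose at 9 months relative to 1 month and 2 fell at 26 months relative to 9 months, with sums of 3043 to 3123, 4535 to 4687 and 3695 to 3718 RPKM. A highest mean at 9 months was thus not particular to fibrocyte markers. It was found for 7 of the 8 basal, 8 of the 14 marginal and 5 of 7 spindle and root cell markers, and for 3 of 12 markers of intermediate cells and melanocytes. The part of these cells in the Car3 values was not tested. Markers of fat cells added up to no more than 1.6 RPKM in any library, with Plin1 and Lep at 0 in all 9, and those of skeletal muscle to between 3.15 and 6.35 RPKM, with Myh4 under 0.1 RPKM in all libraries.

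**Figure D2:**
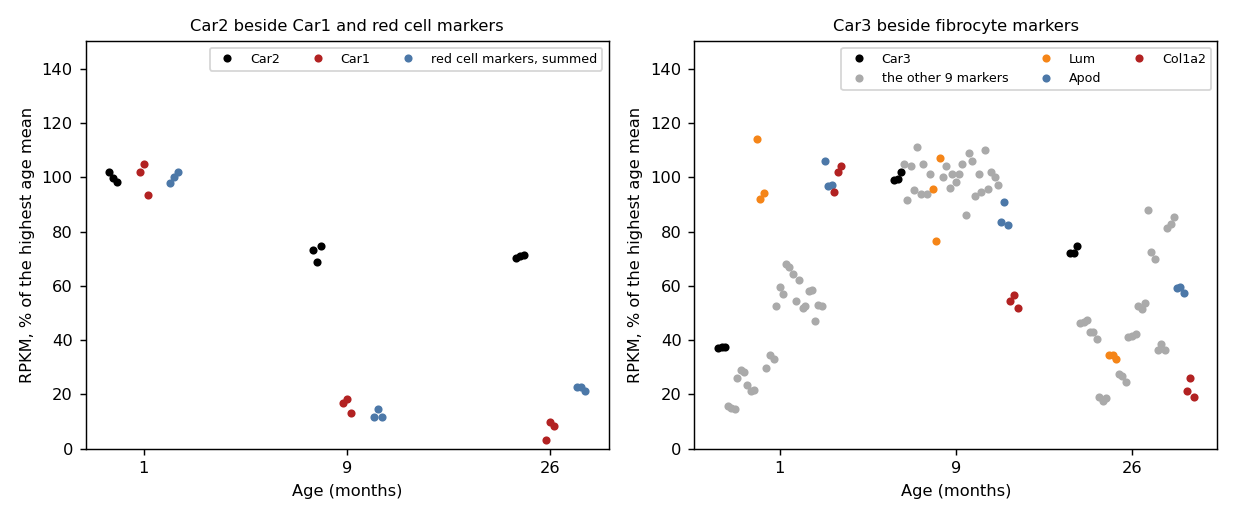
RPKM of Car2 beside Car1 and the sum of 10 red cell markers (left), and of Car3 beside all 12 fibrocyte markers (right), as a percentage of the mean of the age at which each is highest, at 1, 9 and 26 months, with a point per library. Red cell markers are at 11.7% to 14.6% at 9 months where Car2 is at 68.8% to 74.6%. Car3 and 9 of the fibrocyte markers (grey) have their highest mean at 9 months, whereas Apod, Lum and Col1a2 are highest at 1 month. At 26 months the mean of Car3 is above that of 1 month, as are those of Coch, Otos, Col9a1 and Col9a3. The means of Dcn, Emilin2, Pou3f4, Tbx18 and Col9a2 are below those of 1 month.

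Car13, the remaining cytosolic member, was lowest at 26 months. It had 23.4, 21.5 and 22.5 RPKM at 1 month, 23.4, 19.7 and 22.1 at 9 months, and 16.3, 16.2 and 17.2 at 26 months. The libraries of 26 months were below all others, and those of 9 and 1 month overlapped. The log2 difference was -0.39 ± 0.06 for 26 against 9 months (adjusted p = 0.000718), -0.44 for 26 against 1 month (adjusted p = 0.000208) and -0.05 for 9 against 1 month (adjusted p = 0.501). Under median of ratios the differences from 1 month were -0.70 at 26 months and, with an adjusted p of 0.000374, -0.35 at 9 months. None of these reached the fold threshold, and with similar libraries averaged the adjusted p for 26 against 9 months was 0.129. Car13 and Car3, which lie on either side of Car1 on chromosome 3, therefore stood in different orders. The ratio of Car3 to Car13 was 0.725 to 0.793 at 1 month, 1.93 to 2.30 at 9 months and 1.99 to 2.03 at 26 months.

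Car14, a transmembrane isoform with its catalytic domain outside the cell, was the most abundant member at 9 and 26 months. It had 294, 318 and 310 RPKM at 1 month, 270.8, 270.2 and 262 at 9 months, and 385, 381 and 391 at 26 months, and its rank among all genes was 139, 140 and 98. The libraries of the 3 ages did not overlap. Car14 was 1.44 times as high at 26 as at 9 months (log2 0.53 ± 0.04, 95% interval 0.44 to 0.62, adjusted p = 5.72e-06), a difference below the fold threshold, and with similar libraries averaged the adjusted p was 0.0386. Under quantile normalization, median of ratios, rescaling without the 20 most abundant genes and removal of the trend with gene length, the estimate for 26 against 9 months stayed between 0.51 and 0.57. For 26 against 1 month it was 0.33 (adjusted p = 6.48e-05), or 0.09 relative to the median gene, and ranged from 0.07 (adjusted p = 0.23, median of ratios) to 0.55 over those scalings. For 9 against 1 month it was -0.20 (adjusted p = 0.00186), or -0.47 relative to the median gene, and 0.04 under quantile normalization.

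The end of Car14 overlaps the end of Aph1a on the opposite strand by 521 bases, and the library kits are not stated to mark strand, so that reads from there cannot be told apart. Aph1a averaged 24.3, 26.7 and 22.6 RPKM at 1, 9 and 26 months. Of 12 markers of intermediate cells and melanocytes, 1 rose and none fell at 26 months relative to 9 months, and their sum was 5967 to 6013 RPKM at 26 months, against 6179 to 6513 RPKM at 9 months. The sum is mostly Dct and Gsta4, while the median log2 difference of the tested markers was 0.27, and 6 had a higher and 5 a lower mean at 26 than at 9 months. Kcnj10, a potassium channel of intermediate cells, averaged 312.3 RPKM at 26 months, against 256.2 RPKM at 9 months, and Tyr averaged 92.2 RPKM, against 67.3 RPKM. Dct and Gsta4 went the other way, at 3146 and 1827 RPKM at 26 months, against 3263 and 2225 RPKM at 9 months. Of 11 macrophage markers, 5 rose at 26 months relative to 9 months. Over all 15806 genes tested, 519 rose and 640 fell in this comparison. The part of intermediate cells or of macrophages in the Car14 values was not tested.

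Car12, also a transmembrane isoform with an external catalytic domain, was nearly level. It had 87.8, 86.8 and 87.3 RPKM at 1 month, 112, 103 and 110.4 at 9 months, and 103.9, 104.7 and 106 at 26 months. The 1-month libraries were below all the later ones, at a log2 of 0.31 for 9 against 1 month (adjusted p = 6.56e-05) and 0.27 for 26 against 1 month (adjusted p = 0.000173), both short of the fold threshold. These differences were those of the median gene (0.04 and 0.02 relative to it), and they were 0.01 and 0.00 under median of ratios, and with the trend of each library with gene length removed they turned to -0.23 and -0.19. For 26 against 9 months the estimate was -0.05, with an interval of -0.13 to 0.04.

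Car4, which is tied to the outer surface of the plasma membrane by a lipid anchor and is known from capillary endothelium and kidney, rose in both comparisons with 1 month. It had 0.125, 0.15 and 0.125 RPKM at 1 month, 0.95, 0.775 and 0.725 at 9 months, and 1.05, 0.85 and 0.75 at 26 months. All 1-month libraries were below all others, close to the filter of 0.1 RPKM, and the ranges of 9 and 26 months overlapped. The log2 difference was 1.97 ± 0.14 for 9 against 1 month (adjusted p = 1.49e-06) and 2.07 for 26 against 1 month (adjusted p = 1.05e-06). On this scale, log2(RPKM + 0.1), the fold of a gene so low is understated, at 3.91 for 9 against 1 month where the ratio of the means was 6.13. For 26 against 9 months the estimate was 0.10, with an interval of -0.21 to 0.40 (adjusted p = 0.562). With 1 RPKM added in place of 0.1, the log2 differences from 1 month were 0.68 and 0.73 and neither was called. Endothelial markers added up to 96.3 to 100.2 RPKM at 1 month, 134.0 to 135.5 at 9 months and 157.7 to 163.4 at 26 months, and 3 of 10 rose at 9 months and 4 of 10 at 26 months relative to 1 month, with none at 0. Over all genes tested, 10.1% and 9.92% rose in these comparisons. The part of endothelial cells in the Car4 values was not tested.

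Car5b, the mitochondrial member, was low at every age. It had 0.675, 0.75 and 0.8 RPKM at 1 month, 0.7, 0.575 and 0.675 at 9 months, and 0.775, 0.75 and 0.725 at 26 months. On the RPKM as deposited no comparison passed the adjusted p, with 0.18 (interval -0.03 to 0.39) for 26 against 9 months, -0.17 (interval -0.38 to 0.04) for 9 against 1 month and 0.02 for 26 against 1 month. Other scalings changed this. For 9 against 1 month the estimate was -0.62 under quantile normalization (adjusted p = 0.000198), -0.43 under median of ratios (adjusted p = 0.0015) and -0.65 with the length trend removed (adjusted p = 0.000106). For 26 against 1 month it went as low as -0.40 (adjusted p = 0.00206), and for 26 against 9 months as high as 0.27 (adjusted p = 0.0223).

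The members without the full set of zinc-binding histidines, Car8 and Car11, showed no difference that reached the fold threshold. Car8, a protein that binds the inositol trisphosphate receptor and is best known from Purkinje cells of the cerebellum, had 10.8, 10.5 and 9.7 RPKM at 1 month, 15.6, 11.4 and 16.9 at 9 months, and 13.2, 13.0 and 13.5 at 26 months. Library B of 9 months was apart from the other 2 of its age, and the 1-month libraries were below all later ones. The log2 difference was 0.48 ± 0.12 for 9 against 1 month (adjusted p = 0.00653) and 0.35 for 26 against 1 month (adjusted p = 0.0274), both under the fold threshold. With similar libraries averaged these adjusted p were 0.152 and 0.283. Relative to the median gene the differences were 0.21 and 0.11, and under median of ratios they were 0.18 (adjusted p = 0.171) and 0.09 (adjusted p = 0.465). For 26 against 9 months Car8 was at -0.13 (limma's adjusted p = 0.406), and at -0.30 (adjusted p = 0.00108) without library B of 9 months. Car11, a secreted protein of the family, had 4.05, 4.08 and 3.98 RPKM at 1 month, 3.58, 3.95 and 3.4 at 9 months, and 3.53, 3.8 and 3.75 at 26 months. Its estimates were -0.15 for 9 against 1 month (adjusted p = 0.0619), which was -0.42 relative to the median gene, and 0.02 for 26 against 9 months (interval -0.12 to 0.16). For 26 against 1 month the estimate was -0.13. Scaling moved the differences of Car11 from 1 month. Under quantile normalization they were -0.59 at 9 months (limma's adjusted p = 0.000222) and -0.45 at 26 months (adjusted p = 0.000866). Under median of ratios they were -0.44 (adjusted p = 0.000484) and -0.38 (adjusted p = 0.00115).

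Counted over the 9 genes, 0 were called for 26 against 9 months, where 7.33% of all genes tested were. With limma's adjusted p alone, 3 passed (Car14 higher, Car3 and Car13 lower), against 62.8% of all genes, and 4 had no overlap between the 6 libraries, against 61.5%. For 9 against 1 month 2 were called, Car3 and Car4, both higher, where 11.6% of all genes were called and 10.1% were called higher. There, 7 passed the adjusted p alone, against 72.1%, and 7 did not overlap, against 65.2%. For 26 against 1 month 1 was called, Car4, higher, where 12.4% of all genes were called and 9.92% were called higher. In that comparison 7 passed the adjusted p alone, against 73.9%, and 8 did not overlap, against 74.6%. With similar libraries averaged and no fold threshold, 2, 4 and 5 of the 9 passed in the 3 comparisons, against 27.7%, 55.2% and 49.4% of all genes. The median log2 difference of the 9 was -0.03 for 26 against 9 months, where that of all genes was -0.03, then -0.05 against 0.27 for 9 against 1 month, and 0.27 against 0.24 for 26 against 1 month. The comparisons share libraries, so that their counts are not independent.

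**Figure D3:**
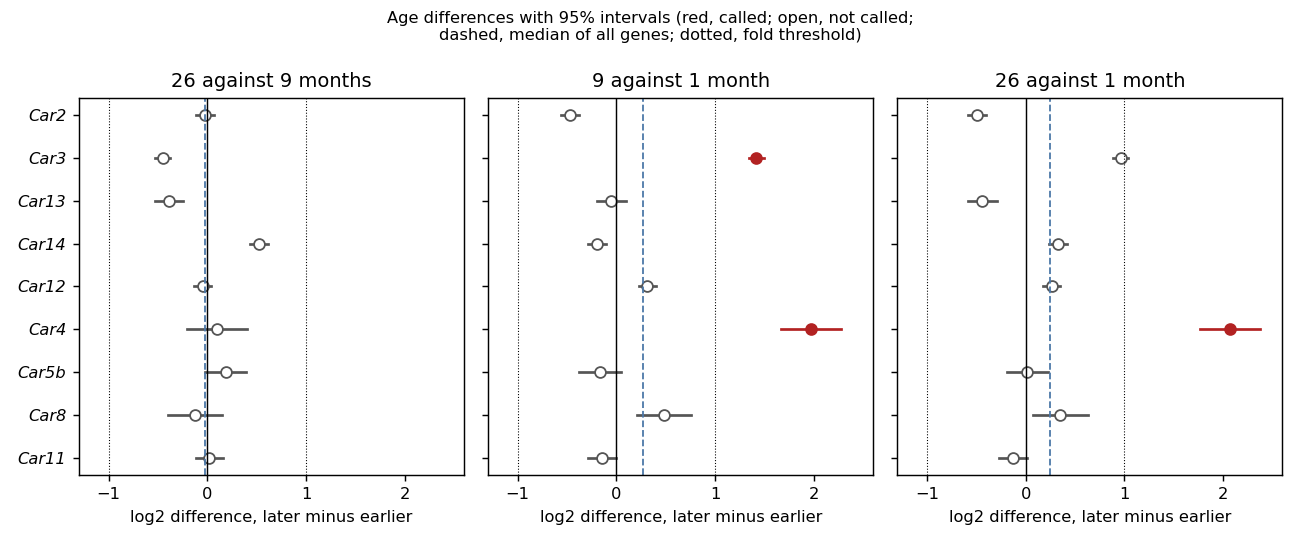
Log2 differences, later minus earlier age, of the 9 carbonic anhydrases with 95% intervals, in 3 comparisons. Red filled points passed both thresholds (Car3 at 1.42 and Car4 at 1.97 for 9 against 1 month, and Car4 at 2.07 for 26 against 1 month), open points did not, the dashed line is the median of all genes and dotted lines mark a log2 of 1 in either direction.

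**Figure D4:**
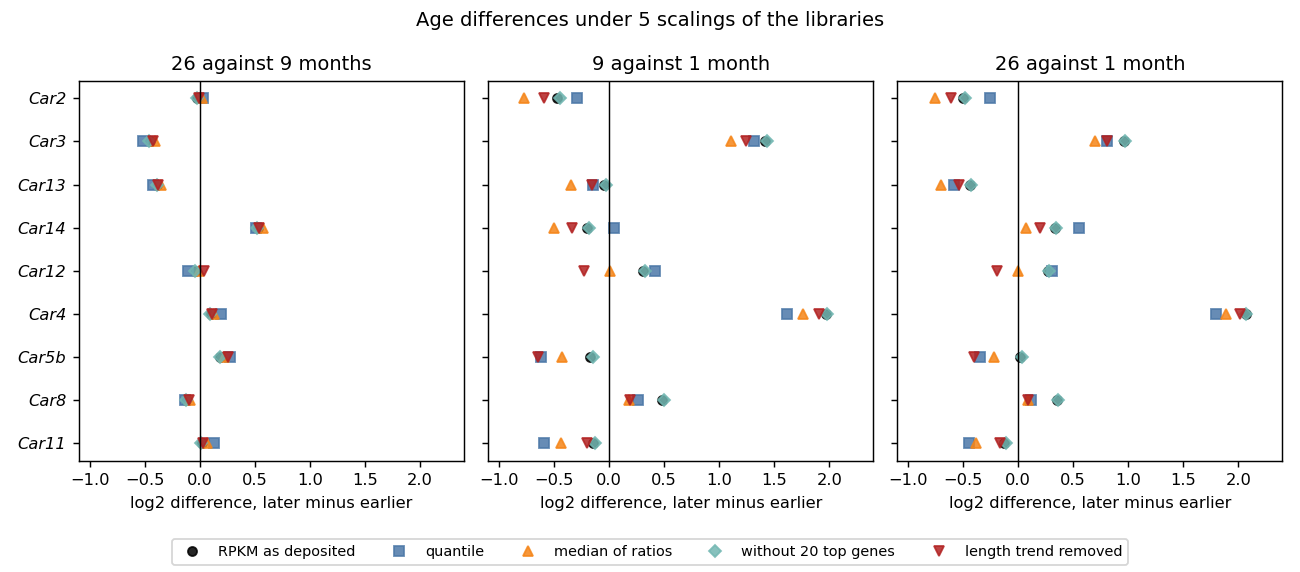
The same log2 differences computed from the RPKM as deposited and under 4 other scalings (symbols). For 26 against 9 months Car14 stays between 0.51 and 0.57 and Car3 between -0.52 and -0.41, whereas for 9 against 1 month Car12 lies between -0.23 and 0.42 and Car14 between -0.50 and 0.04.

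The make-up of the family differed between the ages, with the smallest share of Car2 and the largest share of Car14 at 26 months. Car2 made up 40.9%, 32.6% and 28.3% of the summed RPKM of the 9 genes at 1, 9 and 26 months, and Car14 made up 40.4%, 38.9% and 49.5%. The ratio of Car14 to Car2, which does not depend on a scaling factor common to a library, was 0.927, 1.02 and 1.01 at 1 month, 1.19, 1.26 and 1.13 at 9 months, and 1.76, 1.73 and 1.76 at 26 months, with no overlap between ages. Cytosolic members together made up 46.2%, 42.5% and 34.7%, and membrane-bound members 51.9%, 54.8% and 63.0%. Car12 made up 11.5%, 15.7% and 13.5%, Car3 2.25%, 6.65% and 4.28%, and Car8 with Car11 1.89%, 2.65% and 2.17%. These shares were not tested.

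**Figure D5:**
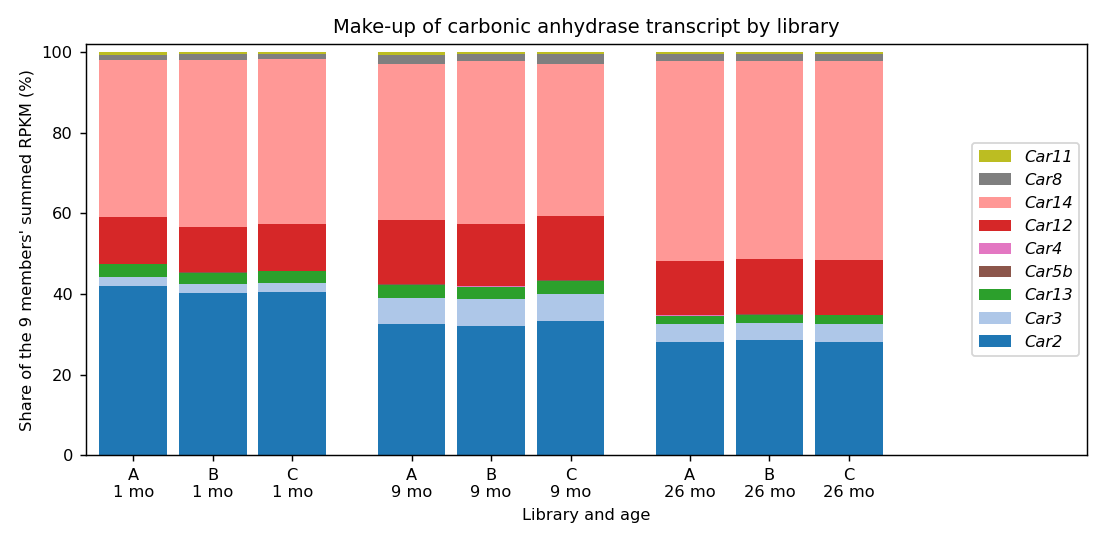
Share of each member in the summed RPKM of the 9 carbonic anhydrases (vertical axis, %), for libraries A, B and C at 1, 9 and 26 months. Car2 takes a mean of 28.3% at 26 months, against 40.9% at 1 month, and Car14 takes 49.5% at 26 months, against 40.4% at 1 month.

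Of the other 7 genes of the family, 5 were tested. Car1 fell at 9 and at 26 months relative to 1 month, as given above, and was the sole call among them in any comparison. The means of Car7, a cytosolic isoform of the nervous system, were 0.983, 0.75 and 1.25 RPKM at 1, 9 and 26 months. Those of Car15 were 0.408, 0.342 and 0.475, those of Car5a, the other mitochondrial isoform, 0.133, 0.217 and 0.233, and those of Car6, the secreted isoform of saliva, 0.175, 0.1 and 0.183. Car9 and Car10 did not exceed 0.05 RPKM in any library and were not tested.

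For the called members, genes with the most similar course over the 9 libraries were looked up among 6405 genes of at least 5 RPKM, by the root mean square difference of centred log2 values. Nearest to Car3 were Tmbim6 (0.06), Plxnc1 (0.06) and Sptan1 (0.07). Tmbim6, a protein of the endoplasmic reticulum, averaged 29.4, 72.1 and 54.7 RPKM at 1, 9 and 26 months. Nearest to Car4 were Adssl1 (0.16), Rcc2 (0.16) and Marveld1 (0.16), and Adssl1, an enzyme of purine synthesis, averaged 1.86, 6.98 and 7.95 RPKM. The search used log2(RPKM + 0.1), where the fold of Car4 for 9 against 1 month was 3.91 and its ratio of means 6.13. The more abundant genes searched are less affected by the added 0.1, so those nearest to Car4 match its understated fold.

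Genes of bicarbonate and proton transport, which handles the products of these enzymes, were counted from a list of 27, of which 18 were tested. Beside transporters the list holds Aqp1, a water channel, Slc9a3r1, a scaffold protein, and Ahcyl1, a regulator of bicarbonate transporters. For 26 against 9 months 1 rose and 4 fell (7.33% of all genes were called), for 9 against 1 month 4 rose and 1 fell (11.6%), and for 26 against 1 month 3 rose and 3 fell (12.4%). Aqp1 was among those that fell for 26 against 9 and for 26 against 1 month. Slc4a11, a transporter of the bicarbonate transporter family, had means of 9.42, 84.0 and 28.9 RPKM at 1, 9 and 26 months, and was called in all 3 comparisons (log2 -1.54, 3.15 and 1.61 for 26 against 9, 9 against 1 and 26 against 1 month). Slc4a10, a sodium-coupled bicarbonate transporter, had means of 0.317, 4.26 and 1.38 RPKM and was likewise called in all 3. Slc26a7, an anion exchanger, fell to 0.167 RPKM at 26 months, against 6.9 RPKM at 9 months (log2 -4.69), and was at 1.51 RPKM at 1 month. Aqp1 fell to 0.458 RPKM at 26 months, against 2.93 RPKM at 9 months (log2 -2.43), and was at 2.06 RPKM at 1 month. Slc4a1, the anion exchanger of red cells and also a member of the red cell list, fell to 0.117 RPKM at 9 months, against 3.08 RPKM at 1 month (log2 -3.89). Atp6v0d2, a subunit of the proton pump, was listed at 0 in every 1-month library and averaged 0.45 RPKM at 9 months and 3.34 RPKM at 26 months (log2 2.69 for 26 against 9 months). Slc4a10 for 26 against 9 months, Atp6v0d2 for 9 against 1 month, and Slc26a7 and Slc4a10 for 26 against 1 month fell outside the naming rule and were named after their values were seen.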

How the data were processed

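RNA sequencing was performed on 9 libraries of stria vascularis, 3 per age. RNA was amplified with SMARTer chemistry and made into Nextera libraries, and paired reads were mapped by the authors to GRCm38 (mm10) in CLC Genomics Workbench (the version is not given in the sources used here). The authors deposited RPKM per gene and library, in steps of 0.025, as a mean of 4 runs rounded to 0.1 gives. Depth is unknown, so no counting error could be computed. A notes sheet writes another age beside the columns of 26 months, and the labels' age was used. The authors' sheets of age means, p-values and log2 fold changes were not used.

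Low values were filtered by requiring 0.1 RPKM or more in 3 or more libraries, which left 15806 genes. Their log2(RPKM + 0.1) was fitted by limma 3.58.1 (R 4.3.3) with 1 mean per age over 9 libraries and a trended prior variance. Calls needed an absolute log2 difference of 1 or more and an adjusted p no higher than 0.10 (Benjamini-Hochberg over all genes fitted), the thresholds of the study. Intervals are at 95%. All tests were two-sided. Figures were drawn with matplotlib 3.10.9. The fit was first tested on simulated data with independent noise in every library. That test cannot tell how the p-values behave if the libraries of an age are technical repeats. For dissociation the labels name trypsin and the study's methods collagenase.

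Members of the family, marker lists, transporters and tests were chosen with earlier results of these data known. All members are named, with the 3 genes nearest in course for a called member, other family genes of at least 0.1 RPKM at any age, and up to 4 called transporters per comparison chosen by smallest p among those averaging 1 RPKM or more. Alternatives covered pseudocount, filter, scaling, thresholds, trend, weights, ages fitted, replicate block, similar libraries (coefficient of variation under 2% over genes of at least 100 RPKM) averaged, and leaving out each library.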

Additional observations from a re-analysis of the deposited data

How the results depend on the processing

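Alternatives that change only a threshold, the trend or the ages fitted cannot move a log2 difference. Leaving out a library of an age not compared cannot move it either. With these included, 608 of 642 values of single members under 24 alternatives kept their direction and side of the thresholds, so that part of this count was fixed in advance. Without the fold threshold they were 3, 7 and 7 for 26 against 9, 9 against 1 and 26 against 1 month (0, 2 and 1 with it), and with similar libraries averaged as well, an alternative added after seeing the data, 2, 4 and 5. With a pseudocount of 1, or with a filter of 1 RPKM in 3 libraries (which leaves Car4 untested), they were 1 for 9 against 1 month and 0 for 26 against 1 month. Called genes of the transport list (5, 5 and 6) were 14, 18 and 16 of 18 without the fold threshold, where 62.8%, 72.1% and 73.9% of all genes passed, and 10, 15 and 12 with averaging as well, where 27.7%, 55.2% and 49.4% passed. Car4 was at 0.68 and 0.73 against 1 month with a pseudocount of 1.

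Directions turned in the following values. For 26 against 9 months Car2 was at 0.03 under quantile normalization and 0.02 under median of ratios, Car4 at -0.04 with array weights, Car11 at -0.01 with averaged libraries and Car12 at 0.04 with the length trend removed. For 9 against 1 month Car12 was at -0.23 with the length trend removed, Car13 at 0.05 with array weights and Car14 at 0.04 under quantile normalization. For 26 against 1 month Car12 was at -0.19 with the length trend removed, and Car5b at -0.35 under quantile normalization, -0.22 under median of ratios, -0.40 with the length trend removed and -0.06 with array weights. Leaving out each library in turn gave -0.02 to 0.20 for Car4 and -0.03 to 0.08 for Car11 (26 against 9 months), -0.11 to 0.02 for Car13 (9 against 1 month) and -0.04 to 0.07 for Car5b (26 against 1 month), and changed no count of called members. The cause of these changes was not tested.

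Over all genes, scaling moved the balance of calls for 9 against 1 month, with 1594 higher and 233 lower as deposited, 531 and 465 under quantile normalization, 748 and 395 under median of ratios and 571 and 325 with the length trend removed. For 26 against 1 month these were 1568 and 396, then 798 and 741, 927 and 692, and 832 and 559. With a pseudocount of 1 they were 136 and 175 for 26 against 9 months (519 and 640 with 0.1), 408 and 45 for 9 against 1 month and 452 and 112 for 26 against 1 month.

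With the library letter as a replicate block, 0, 2 and 1 members were called. The deviations of libraries of the same letter had correlations of 0.18 (A), 0.23 (B) and -0.05 (C) between 1 and 9 months and of -0.05 to 0.04 between the other ages, so not every pair was above 0.1 and the letters were not taken as pairs. Depth is unknown, and levels near 0.1 RPKM, such as those of Car4 at 1 month, rest on few steps of 0.025 RPKM.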
